A study of Mus musculus with 6 samples.

Results

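Chemokines and other secreted inflammatory proteins of muscle were examined as a group of 10 genes in gastrocnemius RNA, out of 43346 genes listed with counts. The 10 genes, taken by name, were the chemokine genes Cxcl10, Cxcl1, Ccl2, Ccl7, Ccl8, Ccl9, Cxcl12 and Cxcl14, the interleukin 6 gene Il6 and the pentraxin gene Ptx3. They were chosen with the contrast of knockout against vehicle in these same libraries already known, so their differences between the groups are given as a description and not as a test. The libraries, 3 per group, came from male mice aged 6 months. The labels do not say outright that each library is a separate mouse, and if it is not, p-values measure technical spread. All the mice were Vdr fl/fl, with loxP sites around exon 3 of the gene for the receptor of vitamin D, and all carried the actin iCre transgene Tg(ACTA1-cre/Esr1*)2Kesr, a Cre recombinase joined to a modified estrogen receptor and driven by the skeletal muscle actin promoter. The knockout group received tamoxifen at 100 mg/kg, in 75 microliters of corn oil with 10% ethanol, for 5 days, and the control group received the same oil and ethanol without tamoxifen. All mice ate a diet with vitamin D3 at 3.4 IU/g and 0.81% calcium, and muscle was taken after strength and glucose tests that were done 10 days after the injections. Tamoxifen-treated mice without Cre are not analysed here, so recombination, Cre activity and tamoxifen came together and cannot be told apart. The promoter limits Cre to muscle fibres, so that immune cells, vessels and connective tissue in the same piece of muscle keep Vdr by design.

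Chemokines are small secreted proteins that guide leukocytes through receptors coupled to G proteins, and they are named after the spacing of their first cysteines (CC and CXC). Most are scarce in resting muscle and are transcribed rapidly after injury or in response to cytokines, by NF-kappa-B and AP-1 factors and, for some, by interferon-activated STAT and IRF factors. Il6 is also known as a cytokine that contracting muscle releases, and Cxcl12 is produced steadily by stromal cells.

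Library totals ran from 30486874 to 39909535 reads. Vdr itself had 52, 27 and 40 reads in the knockout libraries and 46, 48 and 61 in the vehicle libraries, where log2 of the fold change was -0.37 (SE 0.37; edgeR adjusted p = 0.848), so that the counts are only a weak check of the labels. The 8 muscle fibre markers that check the tissue label summed to between 90604 and 201254 CPM, the read count scaled to library size, in every library, with the lowest sum in knockout replicate 2. Of the markers of other cells, fibro-adipogenic progenitor markers had a higher estimate in knockout in 10 of 10 and adipocyte markers in 8 of 8. Endothelial markers had one in 6 of 10, smooth muscle and pericyte in 4 of 8 and satellite cell markers in 4 of 6, and edgeR called 0. DESeq2 called the endothelial marker Cldn5 (adjusted p = 0.0143) and the smooth muscle marker Cnn1 (adjusted p = 0.0297). Both were higher in every vehicle than in every knockout library, as were 6.48% of all genes tested. No gene passed the threshold of an adjusted p below 0.05 (edgeR quasi-likelihood test, 15583 genes tested), while 1159 genes (7.44%) had an unadjusted p below 0.05 and DESeq2 called 109.

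Of the 10 genes, 9 passed the filter on low counts and were tested. Il6 did not pass, since too few libraries held enough reads, although vehicle replicate 2 held 489. Among the 9, edgeR called 0, against 0% of all genes tested. At an unadjusted p below 0.05 there were 3 with a lower and 0 with a higher estimate in knockout, where 3.42% and 4.02% of all genes were. DESeq2 called 1 of them, Cxcl10, against 0.700% of all genes to which it gave an adjusted p, and it gave none to Cxcl1 or Ccl2. Nothing is read from these counts, since the genes were chosen on this contrast. The log2 fold change of knockout over vehicle was below 0 for 5 and above 0 for 4 of the 9, beside 47.1% of all genes tested with an estimate below 0. The median was -1.03, beside 0.02 for all genes tested. Without vehicle replicate 2 the median was 0.21 and only Cxcl10 and Ptx3, 2 of 9, had a lower estimate.

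**Figure D1:**
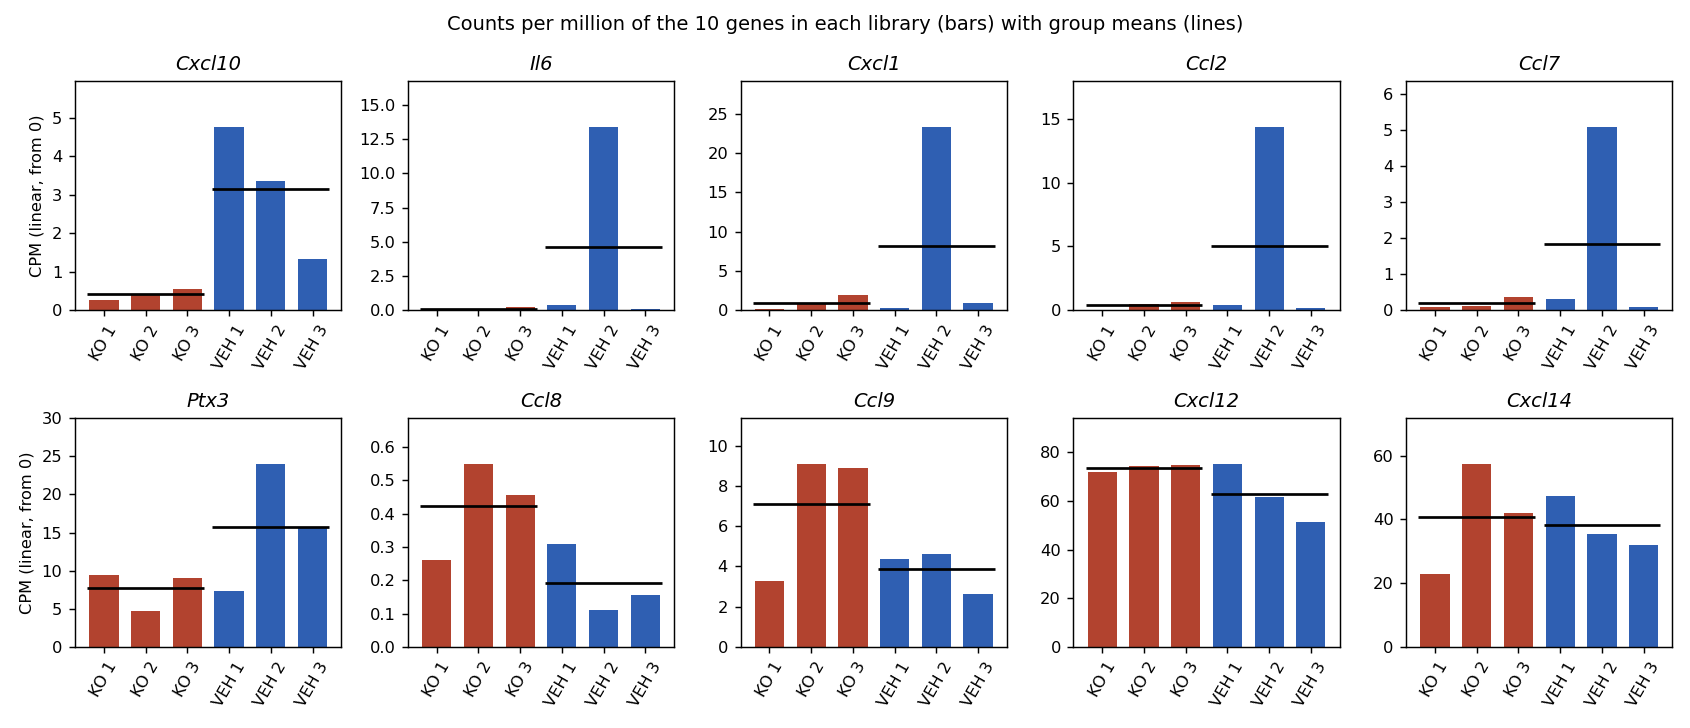
Each panel shows 1 gene, with CPM on a linear axis from 0, a bar for each knockout (KO, red) and vehicle (VEH, blue) library and a black line at each group mean. Cxcl10 stood higher in all 3 vehicle libraries, whereas Il6, Cxcl1, Ccl2 and Ccl7 stood high only in vehicle replicate 2.

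The upstream sequences of 4 of the genes are shown because they carry the letters that inflammatory and interferon-activated factors recognise, or, for Cxcl12, none of them. The set of RefSeq start sites used here (GRCm38.p6) covered 8 of the 10 genes. Ccl2 and Ccl7 had no entry in that set, so their upstream sequences were not searched. Each stretch is the 250 bases before the start site, on the gene's own strand. The stretches are chr5:92348890-92349139 on the minus strand for Cxcl10, chr5:90890995-90891244 on the plus strand for Cxcl1, chr5:30012864-30013113 on the plus strand for Il6 and chr6:117168285-117168534 on the plus strand for Cxcl12. Capitals mark matches, on either strand, to GAAA and GAAA with any 2 bases between (the interferon-stimulated response element), GGGA or GGGG followed after any 2 bases by TTCC (2 forms of the NF-kappa-B motif), TGANTCA (AP-1), TTGNGCAA (C/EBP) or TTCNNNGAA (the gamma-activated site bound by STAT factors).
Cxcl10: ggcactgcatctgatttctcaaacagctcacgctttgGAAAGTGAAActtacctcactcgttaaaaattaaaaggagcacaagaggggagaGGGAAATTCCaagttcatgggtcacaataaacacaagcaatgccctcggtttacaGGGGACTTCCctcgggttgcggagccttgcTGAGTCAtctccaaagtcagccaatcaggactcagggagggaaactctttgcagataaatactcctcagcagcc
Cxcl1: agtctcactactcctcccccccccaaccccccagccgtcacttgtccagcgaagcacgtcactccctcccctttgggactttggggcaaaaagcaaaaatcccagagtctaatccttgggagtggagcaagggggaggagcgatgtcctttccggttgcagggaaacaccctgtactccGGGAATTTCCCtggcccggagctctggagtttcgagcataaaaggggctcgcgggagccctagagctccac
Il6: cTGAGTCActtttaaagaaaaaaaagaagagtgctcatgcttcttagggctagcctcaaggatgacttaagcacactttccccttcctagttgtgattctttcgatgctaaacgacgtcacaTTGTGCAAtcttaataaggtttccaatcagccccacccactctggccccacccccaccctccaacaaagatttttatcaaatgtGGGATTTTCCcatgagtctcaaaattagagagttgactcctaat
Cxcl12: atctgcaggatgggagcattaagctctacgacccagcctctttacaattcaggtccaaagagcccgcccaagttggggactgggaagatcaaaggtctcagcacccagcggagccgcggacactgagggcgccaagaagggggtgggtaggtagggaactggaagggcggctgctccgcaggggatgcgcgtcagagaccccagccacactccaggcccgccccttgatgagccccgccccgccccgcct

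The Cxcl10 stretch held an interferon-stimulated response element, GAAAGTGAAA, from 213 to 204 bases before the start, and both forms of the NF-kappa-B motif, GGGAAATTCC from 159 to 150 and GGGGACTTCC from 104 to 95, with an AP-1 match from 74 to 68. Of all 32851 RefSeq stretches of the same length, 2.98% held the interferon motif, 1.21% and 1.26% the first and second NF-kappa-B forms and 6.75% the AP-1 motif. Cxcl1 held GGGAATTTCC from 71 to 62, which overlaps a match on the other strand shifted by 1 base. Il6 held GGGATTTTCC from 44 to 35, a C/EBP match from 128 to 121 (2.61% of all stretches) and an AP-1 match from 249 to 243. Ptx3 had a C/EBP match, Ccl9 an AP-1 match and the second NF-kappa-B form, Cxcl14 an interferon and a gamma-activated match (the latter in 7.02% of all stretches), and Ccl8 and Cxcl12 none of these 6. The core letters of a vitamin D response element, GNTCA and GNTCA with any 4 bases between, were in 0 of the 8 stretches and in 0.548% of all. These are matches of letters in a short window and say nothing of whether a factor was bound.

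Cxcl10, the chemokine that draws activated T cells and natural killer cells through the receptor Cxcr3, was higher in every vehicle library than in any knockout library. It is the 1 gene of the 9 tested whose groups did not overlap, while all vehicle libraries stood above all knockout libraries in 6.48% of all genes tested. The knockout libraries held 9, 14 and 21 Cxcl10 reads and the vehicle libraries 154, 123 and 51. Scaled to library size these were 0.262, 0.405 and 0.561 CPM in knockout and 4.77, 3.37 and 1.33 CPM in vehicle. The lowest vehicle library, replicate 3, was still above the highest knockout library, and the highest was vehicle replicate 1. The means were 0.409 ± 0.150 and 3.16 ± 1.73 CPM (SD, n = 3 each), a 7.71-fold difference, with a log2 fold change of -2.93 (SE 0.53). It lay between -3.30 and -2.51 when each library was left out in turn. Cxcl10 (ENSMUSG00000034855) lies on chromosome 5 from 92346638 to 92348889 in mm10.

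The neighbouring genes Cxcl9 and Cxcl11 encode the other chemokines of Cxcr3, and they did not share the Cxcl10 pattern. Cxcl9 lies 25.3 kb from Cxcl10 by their lower coordinates, and it stood at 0.669, 1.79 and 1.42 CPM in knockout and 0.588, 0.576 and 0.522 CPM in vehicle libraries. Every knockout library was above every vehicle library, the opposite order to Cxcl10, as in 5.83% of all genes tested. Its log2 fold change was 1.20 (SE 0.46) and did not pass (edgeR adjusted p = 0.645). Cxcl11 lies 12.9 kb away on the other side, and it had 0.494, 2.17 and 1.71 CPM in knockout and 2.69, 0.493 and 0.261 CPM in vehicle libraries. The Cxcl11 groups overlapped, with vehicle replicate 1 highest as for Cxcl10 (log2 fold change 0.36, SE 0.84; edgeR adjusted p = 0.945). Their receptor gene Cxcr3 had 2 reads in knockout replicate 1 and 0 in the other 5 libraries, where 0 reads allow up to 0.0929 CPM, and none of the 10 T and natural killer cell markers had enough reads to be tested.

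Interferon-induced genes, which are read out in the same libraries by 29 tested members of a list of 30, stood mostly on the other side from Cxcl10. None was called by edgeR. At an unadjusted p below 0.05, 20 had a higher and 0 a lower estimate, where 4.02% and 3.42% of all genes tested did. DESeq2 called 6, against 0.700% of all genes to which it gave an adjusted p. The list was chosen with earlier results of these data known, so these counts are a description. The median log2 fold change of the 29 genes was 1.10, beside 0.02 for all genes tested. It was 1.14 without vehicle replicate 2 and 0.82 without knockout replicate 2. Of the 29 estimates 27 were above 0, where 47.1% of all genes tested had an estimate below 0. The 3 of smallest p were the interferon-induced GTPase genes Iigp1, Gbp7 and Gbp3, none past the threshold in edgeR. Iigp1 was at 18.1, 16.7 and 24.0 CPM in knockout and 5.88, 5.59 and 5.63 CPM in vehicle libraries, Gbp7 at a log2 fold change of 1.26 (SE 0.23) and Gbp3 at 1.95 (SE 0.39). The summed macrophage markers were at 51.5 CPM in knockout replicate 1, within the 40.6 to 73.8 CPM of the vehicle libraries, and at 161 and 155 CPM in knockout replicates 2 and 3. Gbp3 was likewise lowest in knockout replicate 1 of the 3, with 5.58, 15.1 and 16.8 CPM against 2.71 to 3.93 CPM in vehicle libraries, whereas Iigp1 and Gbp7 were lowest in knockout replicate 2. The part of macrophages in these values was not tested. The interferon genes Ifng and Ifnb1 had 0 reads in all libraries. Of 12 tested genes for interferon receptors and signalling, 0 were called, and 2 had a higher and 0 a lower estimate at an unadjusted p below 0.05. Irf7, an interferon-induced transcription factor, had a log2 fold change of 0.997 (SE 0.41), the gamma interferon receptor chain Ifngr1 0.49 (SE 0.21) and the signal transducer Stat2 0.74 (SE 0.34), and none passed. Irf7 was at 2.36, 6.74 and 6.94 CPM in knockout and 3.47, 2.55 and 2.03 CPM in vehicle libraries, with knockout replicate 1 within the vehicle range. That list had 9 estimates above 0 and 3 below.

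**Figure D2:**
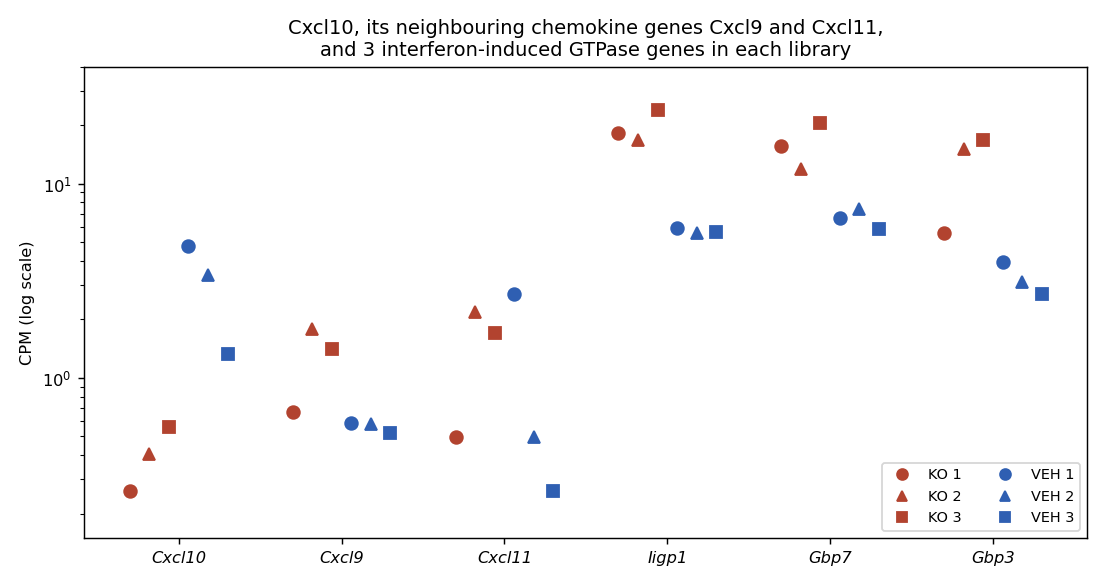
CPM on a log axis for 6 genes, with 1 point per library, knockout (KO) in red and vehicle (VEH) in blue, and replicates 1, 2 and 3 as circle, triangle and square. Cxcl10 lies lower in the 3 knockout libraries, while Cxcl9, Iigp1, Gbp7 and Gbp3 lie higher in them and Cxcl11 is mixed.

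The genes most like Cxcl10 across the 6 libraries were not chemokines. Likeness was measured as the root mean square difference of log2 CPM centred on each gene's mean, over 11430 genes of at least 1 CPM, and the smallest values were 0.78 for Dnase1, 0.79 for Ankrd1, 0.80 for Atf3, 0.81 for Nmrk2 and 0.81 for Tpx2. Dnase1 encodes a secreted nuclease, Ankrd1 a stretch-responsive muscle ankyrin repeat protein, Atf3 a stress-induced transcription factor, Nmrk2 a muscle kinase of nicotinamide riboside and Tpx2 a spindle protein. Dnase1 had 0.116, 0.376 and 1.23 CPM in knockout and 3.07, 2.22 and 2.69 CPM in vehicle libraries. Ankrd1 shared the high value in vehicle replicate 1, 48.6 CPM, but its groups overlapped, since knockout replicate 3 had 23.2 and vehicle replicate 3 had 11.9 CPM. Among the other members Ptx3 was nearest to Cxcl10, at 1.31, farther than any of those 5. Cxcl14 and Cxcl12, which differed little between the groups, lay at 1.42 and 1.53, so the Ptx3 value is no close likeness.

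Il6, Cxcl1, Ccl2 and Ccl7 shared a different pattern, a high level in vehicle replicate 2 alone. Il6 had 489 reads in vehicle replicate 2, against 12 and 3 in vehicle replicates 1 and 3 and 2, 0 and 9 in the knockout libraries. Cxcl1, which attracts neutrophils through Cxcr2, had 852 reads there, against 9 and 37 in the other vehicle libraries and 4, 27 and 72 in the knockout libraries. Ccl2, which attracts monocytes through Ccr2, had 525 reads there, against 13 and 8 in vehicle and 0, 17 and 25 in knockout libraries. Ccl7, a second ligand of Ccr2 whose gene starts 10.1 kb from Ccl2 on chromosome 11, had 186 reads there, against 10 and 3 in vehicle and 3, 4 and 14 in knockout libraries. That library held 94.95% of all Il6 reads, 85.1% of Cxcl1, 89.3% of Ccl2 and 84.5% of Ccl7 reads, and the remaining 5 libraries overlapped between the groups for each gene. The 0 reads of Il6 in knockout replicate 2 and of Ccl2 in knockout replicate 1 allow up to 0.0868 and 0.0872 CPM, from counting error alone.

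The group means of these 4 genes therefore rest on 1 library. Cxcl1 averaged 0.940 ± 0.914 CPM in knockout and 8.20 ± 13.1 CPM in vehicle libraries (SD, n = 3 each), and the vehicle mean was 0.622 CPM without replicate 2. Ccl2 averaged 0.387 ± 0.346 and 5.00 ± 8.13 CPM, and the vehicle mean without replicate 2 was 0.306 CPM. Ccl7 averaged 0.192 ± 0.158 and 1.83 ± 2.83 CPM, with 0.194 CPM without replicate 2. The log2 fold changes with all libraries were -3.11 (SE 1.54) for Cxcl1, -3.67 (SE 1.65) for Ccl2 and -3.21 (SE 1.39) for Ccl7. Without vehicle replicate 2 they were 0.56 (SE 0.99), 0.34 (SE 1.16) and 0.02 (SE 1.00). The sign turned in all 3 genes, but each of these estimates was smaller than its SE, so no direction is set. In the fits without one of the 5 other libraries the log2 fold changes lay between -4.33 and -2.60. Il6 entered the fit only without a filter on low counts, with a log2 fold change of -5.46 (SE 2.53), and its vehicle mean of 4.62 CPM was 0.225 CPM without replicate 2, beside 0.0995 CPM in knockout.

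Few genes behaved in this way. Of 15583 genes tested, 11 (0.0706%) were at least 4 times higher in vehicle replicate 2 than in any other library, with 0.1 added to each CPM. Of the 11, 3 were Ccl2, Cxcl1 and Ccl7, the 3 with the widest gaps. Nothing is read from that number, since the members were chosen with the contrast of these libraries known. Ccl2 was 18.9 times, Cxcl1 11.6 times and Ccl7 10.97 times the next library, and Il6, which was not tested, 28.6 times. The other 8 were Il1b, Socs3, Cxcl2, Adamts4, Has1, Il1r2, Selp and Clec4d. Il1b encodes interleukin 1 beta, Socs3 a cytokine signalling inhibitor, Cxcl2 a neutrophil chemokine and Adamts4 a protease. Has1 encodes a hyaluronan synthase, Il1r2 an interleukin 1 decoy receptor, Selp a selectin and Clec4d a myeloid lectin. Socs3, a feedback inhibitor induced by interleukin 6 signalling, was at 38.9 CPM in that library and between 1.89 and 3.91 CPM in the other 5. Il1b was at 11.4 CPM there and between 0.279 and 1.04 CPM elsewhere. The same rule found 5 genes for knockout replicate 2, 2 for knockout replicate 1, 1 each for knockout replicate 3 and vehicle replicate 3 and 0 for vehicle replicate 1.

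**Figure D3:**
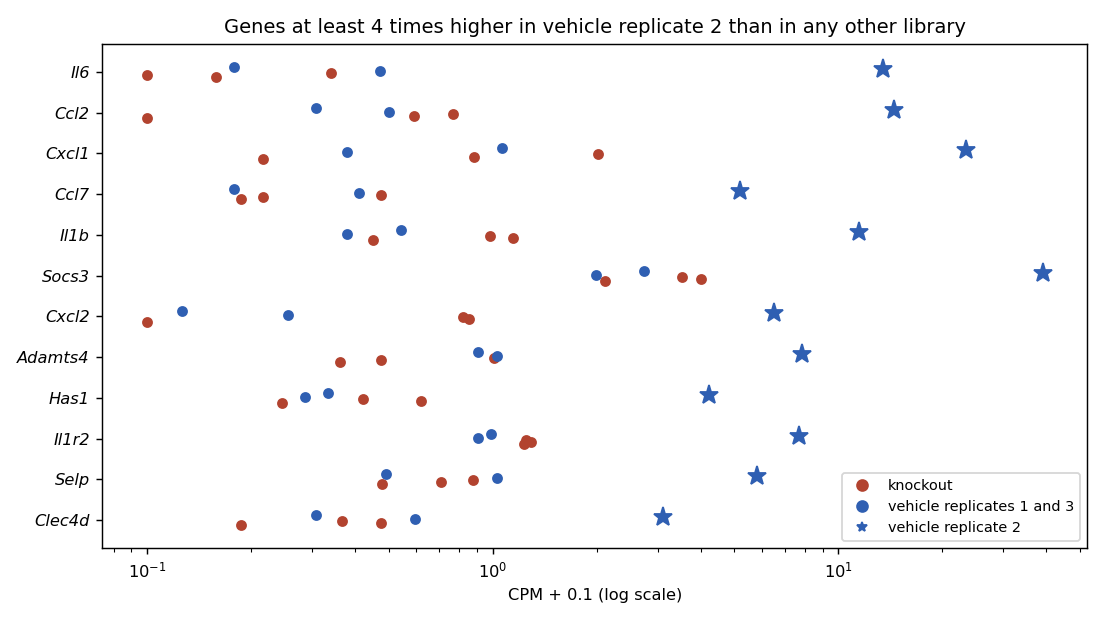
CPM plus 0.1 on a log axis for Il6 and the 11 tested genes at least 4 times higher in vehicle replicate 2 (star) than in any other library, with knockout libraries in red and the other vehicle libraries in blue. The star lies at least 4-fold to the right of the 5 remaining points for each gene, and by 28.6-fold for Il6.

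Neutrophil markers were high in vehicle replicate 2 and in knockout replicate 2. The 8 markers, of which 7 were tested, summed to 38.1 CPM in vehicle replicate 2 and 42.9 CPM in knockout replicate 2, against 4.43 and 5.90 CPM in the other vehicle libraries and 6.54 and 11.5 CPM in the other knockout libraries. The defining marker Ly6g had 0 reads in all vehicle libraries and in knockout replicate 1. Knockout replicate 2 had 0 Il6, 27 Cxcl1 and 17 Ccl2 reads. S100a8, S100a9, Retnlg, Mmp8 and Ly6g were higher in knockout replicate 2 than in vehicle replicate 2, with S100a9 at 22.2 and 18.0 CPM. Csf3r, Cxcr2 and Mmp9 were higher in vehicle replicate 2. The granulocyte receptor gene Csf3r was at 8.30 CPM there and at 2.17 CPM in knockout replicate 2. The part of neutrophils in the levels of Il6, Cxcl1, Ccl2 and Ccl7 was not tested. In bulk RNA, more cells of a type and more RNA per cell cannot be told apart.

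Ptx3, a pentraxin that marks microbes and damaged cells for the complement system and is itself induced by cytokines, was highest in vehicle replicate 2 but with a smaller gap. It had 9.45, 4.69 and 9.03 CPM in knockout and 7.34, 24.1 and 15.8 CPM in vehicle libraries. Vehicle replicate 1 lay below knockout replicates 1 and 3, so the groups overlapped. The means were 7.72 ± 2.64 and 15.7 ± 8.36 CPM (SD, n = 3 each), with a log2 fold change of -1.03 (SE 0.42), and -0.60 without vehicle replicate 2. Of the 14 genes listed as pentraxins and acute phase genes, 9 were tested, 0 were called and 0 had an unadjusted p below 0.05. The 3 of smallest p were Cp, the copper carrier ceruloplasmin, at 0.69 (SE 0.35), Hp, the hemoglobin-binding haptoglobin, at 1.18 (SE 0.62) and Tnfaip6, a hyaluronan-binding protein induced by inflammation, at -0.92 (SE 0.49), and none passed.

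Ccl8 and Ccl9 had higher estimates in knockout, in parallel with macrophage markers. Ccl9, a chemokine that binds Ccr1 and is made by myeloid cells, had 3.26, 9.12 and 8.89 CPM in knockout and 4.37, 4.60 and 2.63 CPM in vehicle libraries. Knockout replicates 2 and 3 lay above all vehicle libraries and knockout replicate 1 lay among them. The means were 7.09 ± 3.32 and 3.87 ± 1.07 CPM (SD, n = 3 each), with a log2 fold change of 0.88 (SE 0.40) and a range of 0.65 to 1.22 when each library was left out. Ccl8, a monocyte chemokine, was near the limit of counting, with 9, 19 and 17 reads in knockout and 10, 4 and 6 in vehicle libraries, and a log2 fold change of 1.14 (SE 0.63). Its groups overlapped, since vehicle replicate 1 lay above knockout replicate 1 in CPM.

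The 12 macrophage markers, of which 11 were tested, summed to 51.5, 161 and 155 CPM in knockout replicates 1, 2 and 3 and to 73.8, 59.8 and 40.6 CPM in vehicle replicates 1, 2 and 3. All 11 had a higher estimate in knockout, and edgeR called 0. Of the 11, 8 had a higher estimate at an unadjusted p below 0.05, where 4.02% of all genes tested did. The marker Fcgr1 had 0 reads in vehicle replicate 3. Ccl6, the gene beside Ccl9 on chromosome 11, had 4.10, 15.3 and 9.48 CPM in knockout and 5.17, 4.93 and 3.10 CPM in vehicle libraries. Its log2 fold change of 1.13 (SE 0.43) did not pass (edgeR adjusted p = 0.645). Ccl6 and Ccl9 are related chemokines of rodents, and reads can be misassigned between close paralogs. The part of macrophage number in these values was not tested. Fibro-adipogenic progenitor markers followed the same order in knockout, with sums of 371, 1069 and 807 CPM in replicates 1, 2 and 3, against 312 to 483 CPM in vehicle libraries.

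**Figure D4:**
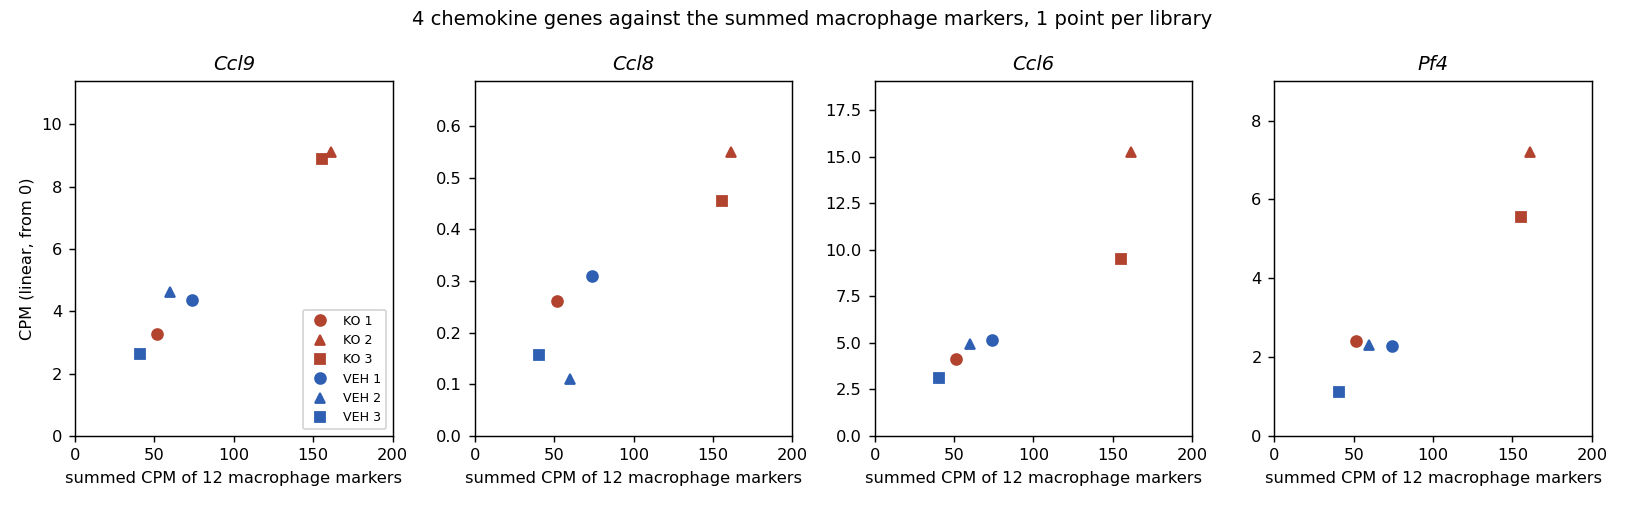
Each panel plots the CPM of 1 chemokine gene (Ccl9, Ccl8, Ccl6 or Pf4) against the summed CPM of 12 macrophage markers, with 1 point per library, knockout (KO) in red and vehicle (VEH) in blue. Knockout replicates 2 and 3 lie apart from the other 4 libraries on both axes, and knockout replicate 1 lies among the vehicle libraries on the marker axis.

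Cxcl12 and Cxcl14 were the most abundant members and differed little between the groups. Cxcl12, the stromal ligand of Cxcr4 and Ackr3, had 71.7, 74.1 and 74.6 CPM in knockout and 75.3, 61.7 and 51.2 CPM in vehicle libraries, with overlap through vehicle replicate 1. Its log2 fold change was 0.23 (SE 0.17), with a 95% interval from -0.17 to 0.62. Cxcl14, a chemokine of skin, fat and connective tissue, had 22.8, 57.5 and 42.0 CPM in knockout and 47.3, 35.4 and 31.9 CPM in vehicle libraries. Knockout replicates 1 and 2 were its lowest and highest libraries, and the log2 fold change was 0.10 (SE 0.31), with a 95% interval from -0.60 to 0.79. By the standard deviation of log2 CPM over the 6 libraries, Cxcl12 varied more than 27.4% of the genes tested and Cxcl14 more than 70.4%, against 99.5% for Cxcl10.

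Per gene length, the members spanned a wide range of levels in the deposited FPKM values (reads scaled for gene length and library depth). The median over the 6 libraries was 21.7 FPKM for Cxcl14, 8.43 for Cxcl12, 3.40 for Ptx3, 1.43 for Ccl9, 0.95 for Cxcl1, 0.616 for Cxcl10, 0.524 for Ccl8, 0.415 for Ccl2, 0.268 for Ccl7 and 0.152 for Il6. Cxcl14 was above Cxcl12 in all 6 libraries without overlap of their ranges. Every other pair of neighbours in that order overlapped in range, so their order is not set beyond the spread. Ranked by their values in vehicle replicate 2 alone, Cxcl1 at 24.0 FPKM was highest and Ccl2 and Il6, at 12.4 and 12.1 FPKM, were above Cxcl12 at 7.39 FPKM.

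The listed relatives gave no called gene in edgeR. Over 10 lists with 186 different genes, 141 were tested and edgeR called 0. DESeq2 called 6, all of them interferon-induced, against 0.700% of all genes to which it gave an adjusted p. At an unadjusted p below 0.05, 27 had a higher and 10 a lower estimate in knockout, where 4.02% and 3.42% of all genes did. The interferon-induced list, with 29 tested genes, held 20 of the higher and 0 of the lower ones. The lean to higher estimates thus came from that list and not from the chemokine and cytokine lists. Among the other CXC, CX3C and XC ligands 8 of 13 were tested, with 5 higher and 3 lower estimates. The 3 of smallest p were Pf4, the platelet factor 4 chemokine, at 1.41 (SE 0.44), Cxcl9, given above, and Ppbp, another platelet chemokine, at -1.66 (SE 0.65). Ppbp was at 0.143 ± 0.102 CPM in knockout and 0.455 ± 0.0475 CPM in vehicle libraries (SD, n = 3 each). Among the other CC ligands 7 of 17 were tested, led by Ccl21a, a lymphatic chemokine with near-identical gene copies, at -0.74 (SE 0.26), Ccl6, given above, and Ccl27a at 0.31 (SE 0.25). Of 23 chemokine receptor genes 8 were tested and 0 had an unadjusted p below 0.05. Their smallest p values belonged to Ccrl2, at -0.94 (SE 0.47), and to the scavenging receptors Ackr2, at 0.74 (SE 0.38), and Ackr4, at 1.32 (SE 0.78).

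For the cytokine pathways, counts of direction depended on single libraries. Of 17 tested genes of the interleukin 6 family and its signalling, 12 had a lower and 5 a higher estimate in knockout, and without vehicle replicate 2, 5 had a lower and 12 a higher one. Without knockout replicate 1, and likewise without knockout replicate 2, 9 had a lower and 8 a higher one. Cntf, a neurotrophic member of the family, was at -1.002 (SE 0.37), the leukemia inhibitory factor receptor Lifr at 0.51 (SE 0.20) and the interleukin 6 receptor Il6ra at 0.69 (SE 0.34), and none passed. Of 24 NF-kappa-B pathway genes, 16 had a lower estimate, and 12 without vehicle replicate 2. The inhibitor Nfkbie was at -1.77 (SE 0.57), and the subunits Nfkb2 and Relb at -0.44 (SE 0.19) and -0.72 (SE 0.31), and none passed. Each was lower in every knockout than in every vehicle library, as were 5 of the 24 and 6.48% of all genes tested. The opposite order was seen in 1 of the 24. Since these 3 genes were named for their small p, their order is a description. Among the genes for these 2 pathways, 8 of 17 and 8 of 24 were highest in vehicle replicate 2, where 15.2% of all genes tested were. Factors that govern the decay of cytokine mRNA gave 0 calls among 8, with Zfp36 at -0.59 (SE 0.23), Zc3h12a at -0.53 (SE 0.21) and Rc3h1 at -0.41 (SE 0.22). Of 19 tested muscle cytokines outside the 10 genes, 15 had a higher estimate, with Ostn (musclin) at -0.53 (SE 0.23), Fndc5 (the irisin precursor) at 0.93 (SE 0.40) and Il15 at 0.59 (SE 0.27), and none passed.

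The 3' untranslated regions differed in AU-rich elements, which recruit decay factors such as the one encoded by Zfp36. In the longest such region of each gene in GENCODE M21, the letters TATTTAT occurred 6 times in Cxcl1 (595 bases), 1 time each in Il6, Cxcl12 and Ptx3 and 0 times in the other 6 members. Of 21690 genes, 26.7% held the letters at least 1 time and 4.01% at least 3 times. Cxcl2, Il1b and Socs3, which shared the high level in vehicle replicate 2, held them 7, 3 and 2 times, whereas Ccl2 and Ccl7 held none. Adamts4, Has1, Il1r2, Selp and Clec4d, also high there, were not looked up. A link between these letters and that pattern was not tested.

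**Figure D5:**
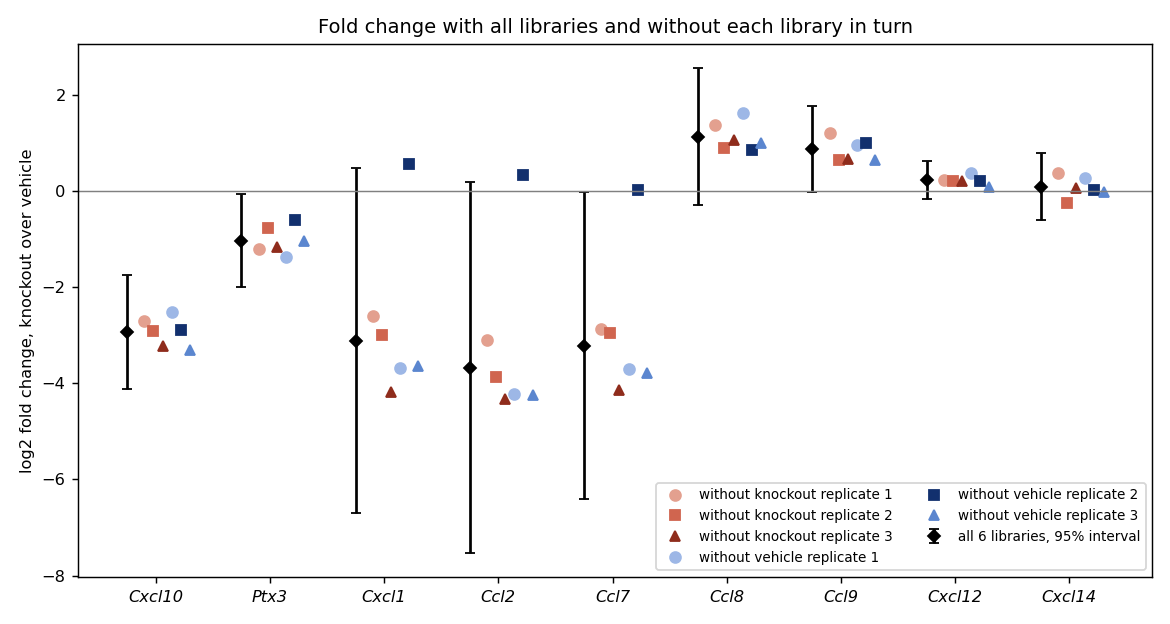
Log2 fold change of knockout over vehicle (vertical axis) for the 9 tested genes, with all 6 libraries (black, 95% interval from the edgeR fit) and without each library in turn (coloured symbols). Cxcl10 and Ptx3 stay below 0 in every fit, while Cxcl1, Ccl2 and Ccl7 move to 0.56, 0.34 and 0.02 without vehicle replicate 2.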

How the data were processed

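RNA sequencing libraries (TruSeq Stranded mRNA, per the labels' protocols) of gastrocnemius muscle made up the 6 libraries, and each counted as 1 replicate. The authors' deposited table gives raw read counts per gene. Demultiplexing with bcl2fastq, STAR 2.6.1c as aligner, featureCounts (Subread 1.5.1) as counter and the mm10 build come from the submitters' processing notes. No source used here states the annotation release or the strand setting, and overlapping genes and close paralogs are uncertain. The deposited FPKM values equal counts over length plus 1 base and over the column total, with no other scaling.

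Tests used edgeR 4.0.16 under R 4.3.3. The filterByExpr function (with a minimum count of 10 and total of 15) selected genes, TMM scaled the libraries, and a robust quasi-likelihood test, two-sided, was adjusted by Benjamini-Hochberg over all 15583 genes tested, with a threshold of 0.05. Standard errors of log2 fold changes were derived from the F statistic. CPM use TMM-scaled library sizes. A count of 3 was taken as the floor, at 0.0783 to 0.0929 CPM, and such limits cover counting error only. Labels give no shared numbers or batches, so groups were not paired. The procedure was run on simulated counts with planted changes, as a check of the sign and size of estimates only. DESeq2 1.42.0 and limma 3.58.1 served as alternatives.

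The 10 members, 10 pathway lists and 9 marker lists were chosen with earlier results of these data known. Up to 4 genes past the threshold, or else the 3 of smallest p, were named per list. Adgre1 was matched by gene ID. Cxcl11, Cxcr3, Ifng, Ifnb1, Cldn5, Cnn1, Fcgr1, the single neutrophil markers and the genes high in vehicle replicate 2 were named after their values were seen. Proteins were not analysed here.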

Additional observations from a re-analysis of the deposited data

How the results depend on the processing

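No paired analysis was possible because the labels give the groups no shared replicate numbers. The count of genes past the threshold, 0, was 4 in edgeR with DESeq2 size factors, 4 in limma-voom with sample quality weights, 109 in DESeq2, 29 with no low-count filter and 7 at an adjusted p below 0.1, and it ranged from 0 to 24 when a library was left out (24 without knockout replicate 1, 6 without knockout replicate 2). Of the 10 genes, 0 passed with all libraries and in each fit that left out a library, and Cxcl10 alone passed in DESeq2 and with no low-count filter (1 gene each). Of the listed genes, 0 passed, with 1 in edgeR with DESeq2 size factors, in limma-voom and at an adjusted p below 0.1, 6 in DESeq2, 2 with no low-count filter and 0 to 4 when a library was left out. Cxcl10 kept a lower estimate in all 15 alternatives, from -3.30 to -1.16, the latter in limma on log2(FPKM + 1), a scale that understates changes of low values. The sign turned without vehicle replicate 2 for Cxcl1 (from -4.18 to 0.56 over the fits without a library), Ccl2 (-4.33 to 0.34) and Ccl7 (-4.13 to 0.017). For Cxcl14 (-0.24 to 0.38 over these fits) it turned in limma-voom (-0.086), without knockout replicate 2 and without vehicle replicate 3, and for Ccl27a (-0.0088 to 0.48) without knockout replicate 2. The cause was not tested. Counts of estimates by direction without each library were added after seeing the data. Fewer than 25 reads in most libraries limit Ccl2, Ccl7, Ccl8 and Il6.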

Other observations

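The platelet chemokine genes Pf4 and Ppbp stood on opposite sides. Pf4 had 2.41, 7.21 and 5.56 CPM in knockout and 2.29, 2.30 and 1.12 CPM in vehicle libraries. Like the summed macrophage markers (161 and 155 CPM), it was highest in knockout replicates 2 and 3. Ppbp had 3, 9 and 3 reads in knockout and 13, 17 and 19 in vehicle libraries. Both pairs of groups were without overlap. The order of Pf4 was that of 5.83%, and the order of Ppbp that of 6.48%, of all genes tested. Neither gene passed in edgeR (adjusted p = 0.611 for Pf4 and 0.645 for Ppbp).

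The listed NF-kappa-B pathway genes differed in how far vehicle replicate 2 stood apart, and 8 of 24 were highest there. Nfkbiz was at 15.6 CPM there and between 4.08 and 4.97 CPM in the other 5 libraries, and Tnfaip3 at 8.17 CPM against 2.21 to 3.03 CPM. Nfkbie was at 1.56 CPM there and 1.49 CPM in vehicle replicate 3. The tumour necrosis factor gene Tnf had at most 3 reads in any library. Nfkbiz, Tnfaip3 and Tnf were named after their values were seen.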
